A study of Mus musculus with 6 samples.

Results

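As3mt, Gsto1 and Gsto2 are 3 genes of chromosome 19 that handle methylated arsenic, among 24063 gene symbols counted by RNA sequencing in mouse bone marrow. As3mt was selected on its CPM (a gene's reads scaled to a common library size, here with TMM normalization) in each of the 6 libraries, for an even difference between the groups, and the Gsto genes, omega-class glutathione transferases, were added by name. The difference of As3mt between the groups is therefore given as a description, with no test. The cells were LSK cells, which lack lineage markers, carry Kit and Sca1, and hold haematopoietic stem cells and early progenitors. The groups were 3 libraries labelled Arid2 knockout (Arid2fl/fl:MxCre+, with both floxed copies of Arid2 and the Mx1-Cre transgene) and 3 control libraries (MxCre+, titled Arid2wt, with wild-type Arid2 and the transgene). Arid2 encodes a subunit of the PBAF chromatin remodelling complex. Mice of both groups were C57/BL6, received pIpC when 6 to 8 weeks old and were sampled 6 weeks later. pIpC is an RNA analogue that induces interferon and with it the Mx1 promoter. Mx1-Cre acts in many interferon-responsive cells and not in blood cells alone, and controls had received both Cre and pIpC. Nothing in the labels ties a library to 1 animal or to a pool, so p-values measure the spread between libraries, which may be technical.

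Cells methylate inorganic arsenic with methyl groups taken from S-adenosylmethionine, which turns it into mono- and dimethylated forms that leave the body in urine. As3mt encodes the methyltransferase of these steps and is best known from liver. Gsto1 encodes an omega-class glutathione transferase that can reduce monomethylarsonic acid and dehydroascorbate, and Gsto2 a close relative known mainly as a dehydroascorbate reductase. Unlike most glutathione transferases, the omega class carries a cysteine in its active site and works as a thiol transferase.

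In mm10, As3mt (ENSMUSG00000003559) lies at chr19:46707458-46741099, Gsto1 (ENSMUSG00000025068) at chr19:47854970-47864790 and Gsto2 (ENSMUSG00000025069) at chr19:47865534-47886324, all on the plus strand. As3mt ends 1.11 Mb before Gsto1, whereas Gsto1 and Gsto2 stand head to tail with 744 bases between them. The promoters of As3mt, the member that differed most between the groups, and of Gsto1, the most abundant member, are shown as the 250 bases before the RefSeq transcript start (GRCm38.p6, plus strand), with matches to the motifs searched in capitals.
As3mt, chr19:46707208-46707457: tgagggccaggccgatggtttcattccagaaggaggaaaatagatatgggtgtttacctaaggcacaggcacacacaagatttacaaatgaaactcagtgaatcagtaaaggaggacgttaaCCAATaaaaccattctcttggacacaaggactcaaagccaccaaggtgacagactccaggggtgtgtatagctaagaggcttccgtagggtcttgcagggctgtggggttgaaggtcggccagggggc
Gsto1, chr19:47854723-47854972: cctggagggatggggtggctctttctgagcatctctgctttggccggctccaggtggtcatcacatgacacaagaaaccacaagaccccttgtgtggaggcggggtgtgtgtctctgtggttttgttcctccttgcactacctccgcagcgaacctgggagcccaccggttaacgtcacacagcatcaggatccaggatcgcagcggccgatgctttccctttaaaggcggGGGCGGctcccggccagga
The capitals mark CCAAT, 128 bases before the start of As3mt, and the GC box GGGCGG, 19 bases before the start of Gsto1. CCAAT was present on either strand in 33.8% of 32851 RefSeq promoter windows of this length, and GGGCGG in 32.7%. No match to TGACNNNGC (antioxidant response element), GCGTG (core of the aryl hydrocarbon receptor site), TATAAA or GATAA was found in either window on either strand. These letters were present in 10.2%, 28.2%, 12.4% and 22.6% of all windows, in that order. The As3mt window held 4 CpG dinucleotides, with an observed over expected ratio of 0.272, and the Gsto1 window 12, with a ratio of 0.534. The 2 windows listed for Gsto2 held 16 and 22 CpG dinucleotides.

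The libraries held 12408966 to 28185678 counted reads, and 13679 genes passed the filter on low counts. Arid2 itself had 162.5, 150.2 and 155.4 CPM in the libraries labelled knockout and 165.05, 153.96 and 148.4 CPM in controls. Its gene-level counts do not show whether the floxed part is missing from the transcript, so the libraries keep their labelled names here. By the summed level of Uty, Kdm5d, Ddx3y and Eif2s3y, genes of the Y chromosome, which came (per total count, unscaled) to 251.7 CPM in control replicate 1 and 277.2 CPM in control replicate 3 and to at most 2.58 CPM elsewhere, those 2 controls were male and the other 4 libraries female. Control replicate 2 was therefore the sole female control, and fits that take sex into account rest on it. Between the groups, 8.42% of tested genes passed an edgeR adjusted p of 0.05 (3.85% were higher and 4.58% lower).

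As3mt was expressed at 19.6, 16.6 and 15.9 CPM in the libraries labelled knockout (replicates 1 to 3), against 52.0, 54.2 and 50.2 CPM in the controls. These levels rested on 371, 411 and 198 reads in the libraries labelled knockout and on 846, 1524 and 729 reads in the controls. The groups did not overlap, and the lowest control was 2.56 times the highest library labelled knockout. Means were 17.4 ± 1.98 CPM in the libraries labelled knockout and 52.1 ± 1.97 CPM in controls (SD, n = 3 each). The log2 fold change was -1.58 (SE 0.10), or 33.4% of the control level. With the rule having used this contrast, the 8.42% of genes called between the groups is given as its background, and nothing is read from it for As3mt. Among all 13679 tested genes, 116 including As3mt had a log2 fold change as low as that of As3mt or lower.

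Within groups, the coefficient of variation of As3mt was 11.4% in the libraries labelled knockout and 3.78% in controls. Exact Poisson intervals (95%), which cover counting error only, ran from 13.8 to 18.3 CPM in knockout replicate 3, the library with the fewest As3mt reads, and from 17.7 to 21.7 CPM in knockout replicate 1. On the log2 CPM scale, 64.5% of tested genes had a smaller SD than As3mt in the libraries labelled knockout and 15.1% in controls. Female control replicate 2 had 54.2 CPM of As3mt and the male controls 52.0 and 50.2 CPM. With sex as a term in the model the log2 fold change of As3mt was -1.64 (SE 0.13), and among female libraries alone it was -1.64 (SE 0.14), both set by control replicate 2.

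A ratio to another gene of the same library does not depend on how libraries are scaled. For every 100 reads of Gsto1 there were 14.1, 11.4 and 12.5 reads of As3mt in the libraries labelled knockout, against 37.2, 36.1 and 36.02 in the controls. Borcs7, counted under its older symbol 2010012O05Rik, encodes a subunit of a lysosome-positioning complex and ends 4076 bases before As3mt on the same strand. For each of its reads there were 1.41, 0.93 and 1.02 reads of As3mt in the libraries labelled knockout, against 3.12, 3.12 and 2.45 in the controls. These ratios restate the values by which As3mt was selected and add no support to them.

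**Figure D1:**
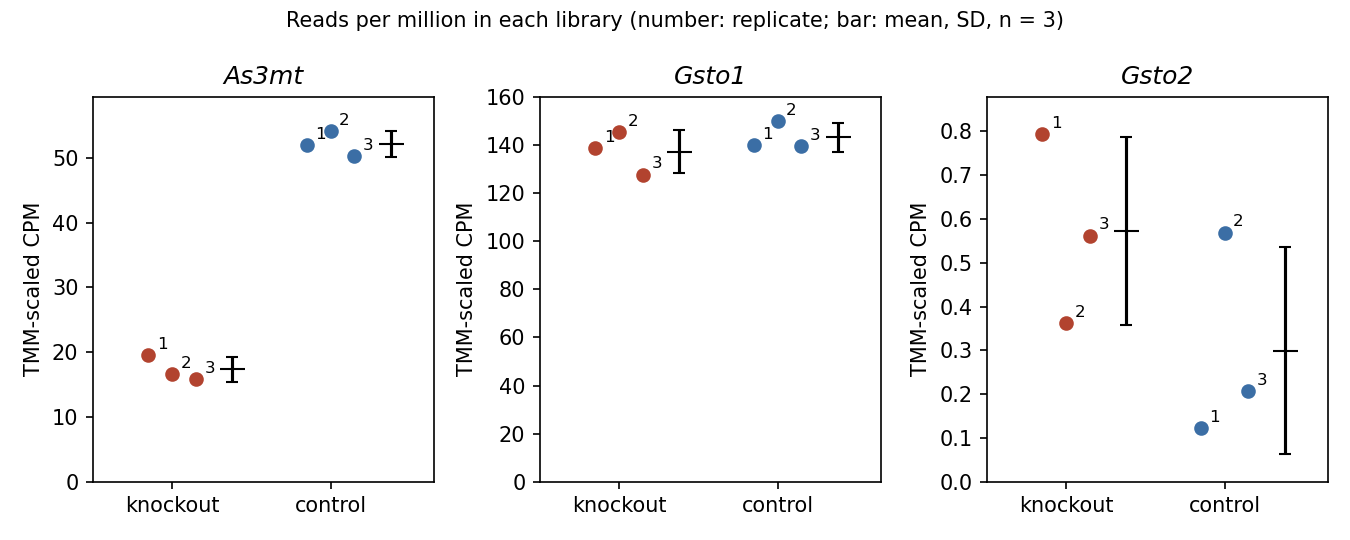
TMM-scaled CPM (y axis, linear from 0, own scale in each panel) of As3mt, Gsto1 and Gsto2 in each library labelled knockout (red) and each control library (blue), numbered by replicate, with the mean and SD of each group beside them (n = 3 each). As3mt sits between 15.9 and 19.6 CPM in the libraries labelled knockout and between 50.2 and 54.2 CPM in controls, while the groups overlap for Gsto1 and Gsto2.

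Gsto1, the abundant omega-class transferase, did not pass the test. It had 138.6, 145.1 and 127.6 CPM in the libraries labelled knockout, against 139.97, 149.9 and 139.4 CPM in the controls. The groups overlapped, with knockout replicate 3 lowest and control replicate 2 highest. Means were 137.1 ± 8.85 CPM in the libraries labelled knockout and 143.1 ± 5.89 CPM in controls (SD, n = 3 each). The log2 fold change was -0.06 (SE 0.07; edgeR adjusted p = 0.630), and 95% confidence limits put the level between 86.0% and 106.8% of controls.

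Gsto2 was at the edge of detection, with 15, 9 and 7 reads in the libraries labelled knockout and 2, 16 and 3 reads in the controls. That gave 0.79, 0.36 and 0.56 CPM in the libraries labelled knockout and 0.12, 0.57 and 0.21 CPM in the controls. A count of 3 reads, the limit that a count of 0 allows, corresponds to 0.107 to 0.241 CPM in these libraries, and control replicates 1 and 3 lay at or under their own limits of 0.184 and 0.207 CPM. Gsto2 passed the filter through 2 libraries labelled knockout and 1 control at or above 0.557 CPM. Its log2 fold change was 0.73 (SE 0.61; edgeR adjusted p = 0.503), so no difference was detectable at this depth.

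Gsto2 values also lay apart by the sex of the libraries. The 4 female libraries had 0.36 to 0.79 CPM (47 reads in all), and the male controls had 0.12 and 0.21 CPM (5 reads in all). With a sex term the log2 fold change was -0.014 (SE 0.61, edgeR adjusted p = 0.997; 0.402 to 0.997 over all settings tried). Whether sex accounts for the difference was not tested, and with 2 male libraries, both controls, sex and group cannot be told apart for them.

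**Figure D2:**
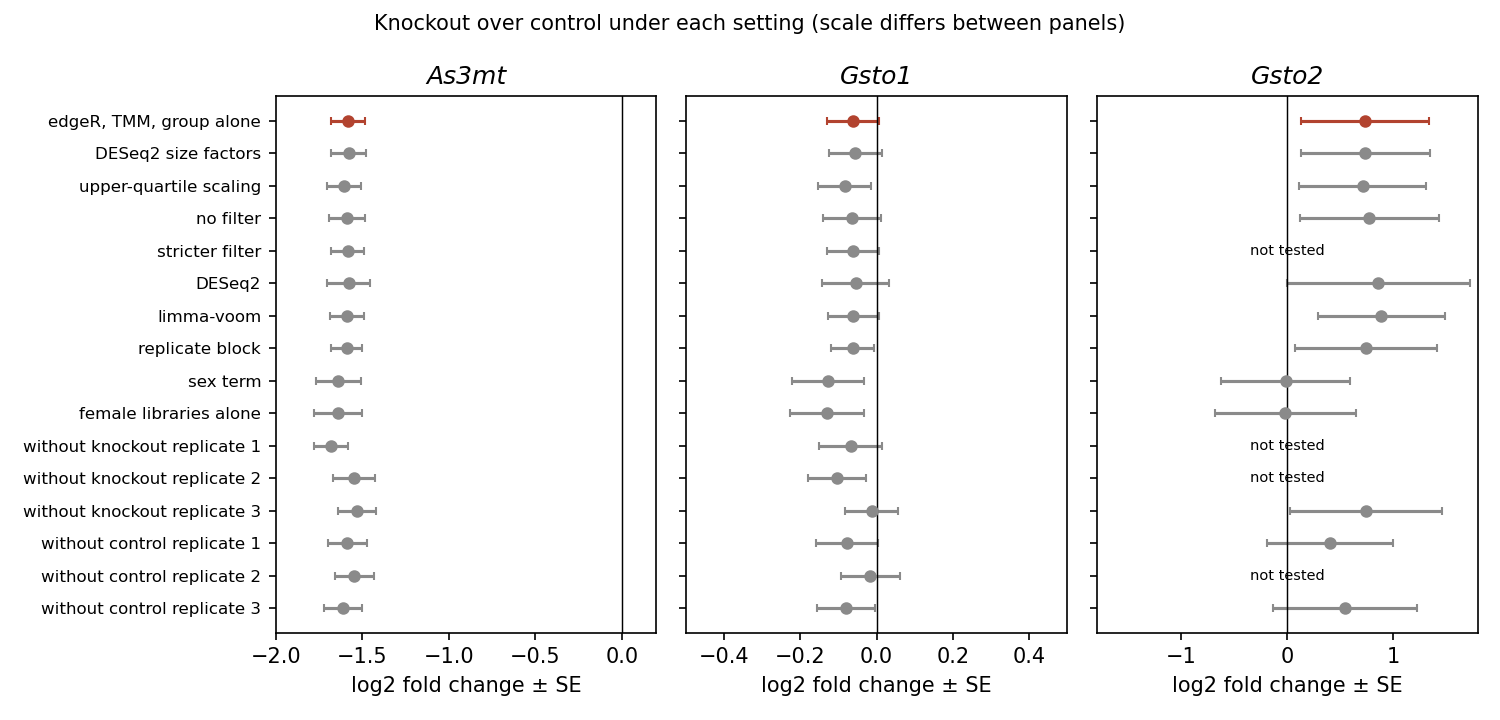
Log2 fold change, knockout over control, of As3mt, Gsto1 and Gsto2 (x axis, own scale in each panel) with its SE under the edgeR fit by group alone (red, top) and under each other setting (grey). As3mt stays between -1.68 and -1.53 and Gsto1 between -0.13 and -0.01, whereas Gsto2 lies at -0.014 with the sex term and at -0.016 among female libraries alone; settings whose filter removed Gsto2 are marked as not tested.

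Per length, the members spanned a wide range of levels. Taken as CPM per kb of annotated exon, Gsto1 had a level of 67.8 ± 4.37 in the libraries labelled knockout and 70.7 ± 2.91 in controls, As3mt 5.40 ± 0.616 in the libraries labelled knockout and 16.2 ± 0.614 in controls, and Gsto2 0.244 ± 0.0916 in the libraries labelled knockout and 0.127 ± 0.101 in controls (SD, n = 3 each). The order Gsto1, As3mt, Gsto2 held in every library, and no neighbours in it overlapped. Among 13521 tested genes with a known exon length, the As3mt level was above that of 40.8% of genes in the libraries labelled knockout and 71.7% in controls. Gsto1 stood above 94.6% in the libraries labelled knockout and 95.03% in controls, and Gsto2 above 4.79% in the libraries labelled knockout and 1.73% in controls. The exon lengths behind these levels were 3212 bases for As3mt, 2023 for Gsto1 and 2349 for Gsto2.

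Transcript sequences of the members were checked for stretches shared with other genes. Of 3345 distinct stretches of 50 bases in As3mt transcripts, 2067 in Gsto1 and 2439 in Gsto2, 0 occurred in a transcript of another GENCODE gene on either strand. The longest run shared by Gsto1 and Gsto2 transcripts was 24 bases. Cfap43, a gene of motile cilia counted as Wdr96, spans both Gsto genes on the opposite strand without sharing an exon base, and had 0.85, 2.02 and 1.60 CPM in the libraries labelled knockout against 1.66, 2.20 and 1.72 CPM in controls. As3mt overlapped no annotated gene.

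Around the members, Sfxn2 alone passed the test. Of 59 annotated genes within 500 kb of a member, 36 were in the table and 29 tested, of which 1 was called by edgeR, as higher, against 3.85% of all tested genes. Borcs7, the nearest gene before As3mt, had 13.95, 17.8 and 15.6 CPM in the libraries labelled knockout and 16.7, 17.3 and 20.5 CPM in controls (log2 fold change -0.20, SE 0.13). Cnnm2, a magnesium transport mediator and the nearest gene after As3mt, had 18.1, 18.2 and 16.9 CPM in the libraries labelled knockout and 15.8, 15.7 and 13.6 CPM in controls (log2 fold change 0.24, SE 0.11). Neither passed the test (edgeR adjusted p = 0.415 and 0.227), and Borcs7 overlapped between the groups while Cnnm2 did not. Itprip, the nearest gene after Gsto2, had a log2 fold change of 0.08 (SE 0.07).

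Sfxn2, a mitochondrial sideroflexin with its start at -134.1 kb relative to that of As3mt, was the gene that rose. It had 38.3, 37.9 and 39.5 CPM in the libraries labelled knockout and 23.2, 28.9 and 28.5 CPM in controls (log2 fold change 0.52 with SE 0.10; edgeR adjusted p = 0.0204). The call was lost without knockout replicate 1, 2 or 3 (adjusted p = 0.0584 to 0.0757) and with the sex term (0.304). The lowest value in the region belonged to Neurl1a, named here after its values were seen, with 95% confidence limits of -3.24 and -0.76 on its log2 fold change, at 0.36 ± 0.19 CPM in the libraries labelled knockout and 1.45 ± 0.59 CPM in controls (SD, n = 3 each). It did not pass the test (edgeR adjusted p = 0.0580), and it had passed the filter on low counts through the controls alone. The 21 tested neighbours of As3mt with a mean of at least 1 CPM had log2 fold changes of -0.40 to 0.52.

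**Figure D3:**
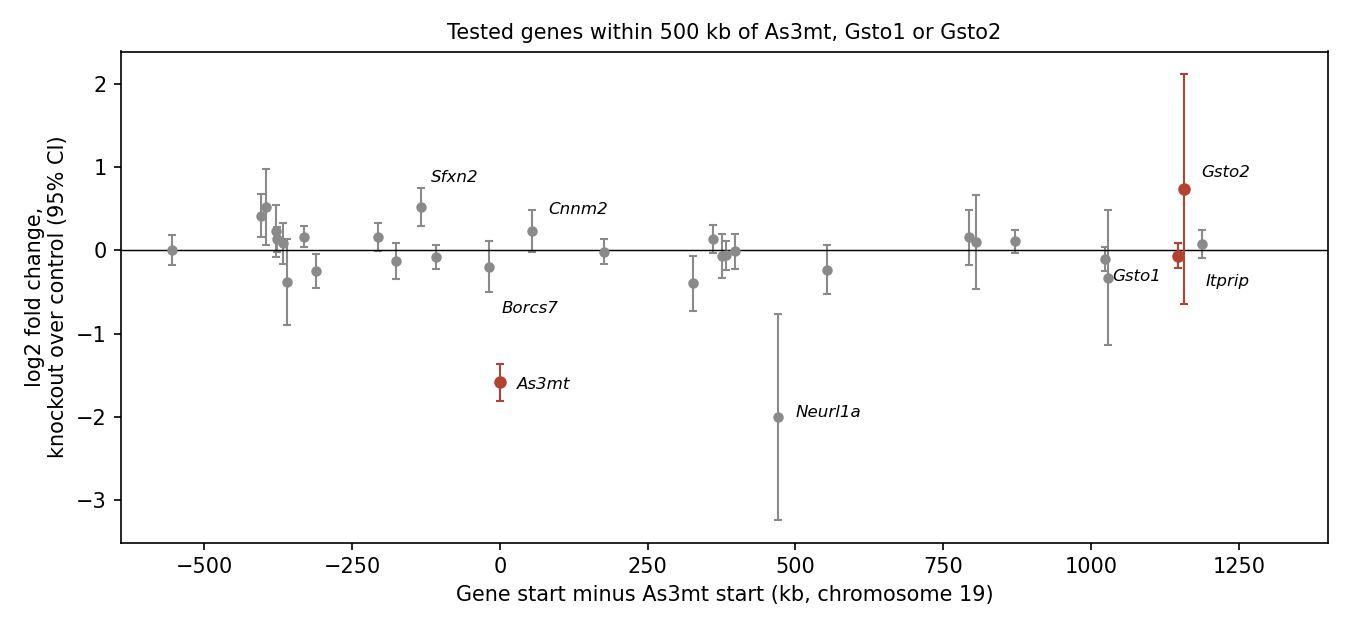
Log2 fold change, knockout over control, with its 95% confidence interval (y axis) of tested genes within 500 kb of a member, by the distance of the gene start from the As3mt start in kb (x axis), with As3mt, Gsto1 and Gsto2 in red and other genes in grey. As3mt stands at -1.58 between Borcs7 at -0.20 and Cnnm2 at 0.24.

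The other genes of arsenic handling were taken as lists for methyl group supply, arsenic transport, glutathione and thioredoxin, other glutathione transferases, targets of the oxidative stress factor Nfe2l2 (Nrf2), and ascorbate. These lists were chosen with earlier results of these data known, so shares of listed genes called, here and below, are given as descriptions. Of 111 listed genes without the members, 86 were tested, and 6 were higher (6.98%, against 3.85% of all genes) and 2 lower (2.33%, against 4.58% of all genes). Their median log2 fold change was 0.04, against 0.00 over all genes. The counts were 0 and 0 with the sex term, where 16 of 86 had an unadjusted p under 0.05, against 27 by group alone. When knockout replicate 1, 2 or 3 or control replicate 1 was left out, 3, 1, 3 and 3 were higher, and without knockout replicate 2 the genes lower numbered 1.

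Genes of methyl group supply and arsenic methylation, N6amt1 and Pnp among them, did not pass the test by edgeR (0 of 12 past it, 3 with an unadjusted p under 0.05, and 2 higher by DESeq2). Mat2a, which makes S-adenosylmethionine, had 250.1 ± 16.4 CPM in the libraries labelled knockout and 285.6 ± 29.7 CPM in controls (SD, n = 3 each; log2 fold change -0.19). Ahcyl1, a relative of the enzyme that clears S-adenosylhomocysteine, had a log2 fold change of -0.12. Pnp, a purine nucleoside phosphorylase that can drive the reduction of arsenate, had 0.36 (edgeR adjusted p = 0.0689). N6amt1, named here after its values were seen, encodes the other methyltransferase that has been linked to arsenic in human cells. It had 21.98, 21.9 and 23.7 CPM in the libraries labelled knockout and 21.6, 22.03 and 21.9 CPM in controls (log2 fold change 0.04, SE 0.09, edgeR adjusted p = 0.819), so its groups overlapped.

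Transporters were likewise not past the test by edgeR (0 of 10, with 3 at an unadjusted p under 0.05, and 2 higher by DESeq2). The export pump Abcc1, which carries glutathione conjugates, had a log2 fold change of -0.07, its relative Abcc4 had 0.22, and Slc20a1, a phosphate transporter, had -0.04. Ascorbate genes had 0 of 5 past the test, by edgeR and by DESeq2, and 0 with an unadjusted p under 0.05. The most abundant of them, the reductase Akr1a1, the glucose and dehydroascorbate carrier Slc2a3 and the ascorbate carrier Slc23a2, had log2 fold changes of -0.01, 0.07 and -0.02.

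Among 23 tested glutathione and thioredoxin genes, 1 rose (4.35%, against 3.85% of all tested genes), 1 fell (4.35%, against 4.58%) and 21 did not pass. Gss, the enzyme of the last step of glutathione synthesis, had 36.4, 34.9 and 39.5 CPM in the libraries labelled knockout and 25.8, 25.4 and 25.5 CPM in controls (log2 fold change 0.53 with SE 0.08; edgeR adjusted p = 0.00983). The call of Gss held without each library in turn. Its groups did not overlap, which was also so for Gsr, Txnip and other genes of the list that did not pass. Gpx7, a peroxidase of the endoplasmic reticulum, fell to 0.634, 0.605 and 0.802 CPM in the libraries labelled knockout, against 4.06, 2.52 and 5.17 CPM in controls (log2 fold change -2.52 with SE 0.35; edgeR adjusted p = 0.00680). The most abundant genes of the list did not pass, with log2 fold changes of 0.25 for the peroxidase Gpx1, 0.63 for the glutathione reductase Gsr and -0.42 for the thioredoxin inhibitor Txnip.

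The list of other glutathione transferases was drawn widely, with Mgst, Ptges, Clic and Gdap1 genes beside the Gst classes. Among its 23 tested genes, 2 rose (8.70%, against 3.85% of all tested genes), 1 fell (4.35%, against 4.58%) and 20 did not pass. Gstk1, a kappa-class transferase of mitochondria and peroxisomes, had 15.4, 13.3 and 13.96 CPM in the libraries labelled knockout and 9.16, 6.40 and 8.33 CPM in controls (log2 fold change 0.85, edgeR adjusted p = 0.0214). Gdap1, an outer mitochondrial membrane protein with a transferase fold, had 2.32 ± 0.20 CPM in the libraries labelled knockout and 0.30 ± 0.21 CPM in controls (log2 fold change 2.86, edgeR adjusted p = 0.0109, n = 3 each). The mu-class gene Gstm2 had 0.29 ± 0.06 CPM in the libraries labelled knockout and 1.48 ± 0.32 CPM in controls (log2 fold change -2.30, edgeR adjusted p = 0.0122, n = 3 each). Gstm2 has near copies among the mu-class genes, so its counts are uncertain where reads were shared. Gdap1 passed the filter through the libraries labelled knockout alone, and Gstm2 through the controls alone. Under the 0.557 CPM cutoff lay Gdap1 in the controls (0.06, 0.43 and 0.41 CPM) and Gstm2 in the libraries labelled knockout (0.26, 0.36 and 0.24 CPM). Their calls and fold changes, and the shares above that count them, depend on this selection. Gstk1 lost its call without knockout replicate 1, 2 or 3 (adjusted p = 0.0568 to 0.0741), and Gdap1 and Gstm2 without knockout replicate 2 (0.0562 and 0.0526). The most abundant genes of the list, Clic1, Gstm1 and Clic4, had log2 fold changes of 0.13, 0.02 and -0.19 and did not pass.

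The list of Nfe2l2 targets also held Nfe2l2 itself and its regulator Keap1. Of its 21 tested genes, 3 were higher (14.3%, against 3.85% of all tested genes) and 0 lower by edgeR (7 with an unadjusted p under 0.05; 3 higher and 1 lower by DESeq2). Hmox1, which degrades haem, had 47.2, 86.0 and 137.0 CPM in the libraries labelled knockout and 16.2, 22.5 and 32.4 CPM in controls (log2 fold change 1.92 with SE 0.37; edgeR adjusted p = 0.0207). The groups did not overlap, which was also so for Ftl1 and other genes of the list that did not pass. The spread of Hmox1 was widest among the libraries labelled knockout. G6pdx, which makes NADPH, and Srxn1, which repairs peroxiredoxins, had log2 fold changes of 0.60 and 0.77 (edgeR adjusted p = 0.0304 and 0.0469). Hmox1 lost its call without knockout replicate 2 or control replicate 1 or 2 (adjusted p = 0.0556 to 0.0719), G6pdx without knockout replicate 1, 2 or 3 or control replicate 1 (0.0595 to 0.0912), and Srxn1 without every library but control replicate 3 (0.0994 to 0.139). The abundant genes Tkt, Fth1 and Ftl1, for transketolase and the ferritin chains, had 0.09, 0.25 and 0.20 and did not pass. Of the 21 genes, 14 had a positive log2 fold change and the others a negative one. Nqo1, Txnrd1, Gclc, Gclm and Mt1, named here after their values were seen, had -0.04, -0.02, 0.11, 0.13 and -0.33 and did not pass. Of the 8 genes called across the lists, 0 passed with the sex term (edgeR adjusted p = 0.0842 to 0.405).

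**Figure D4:**
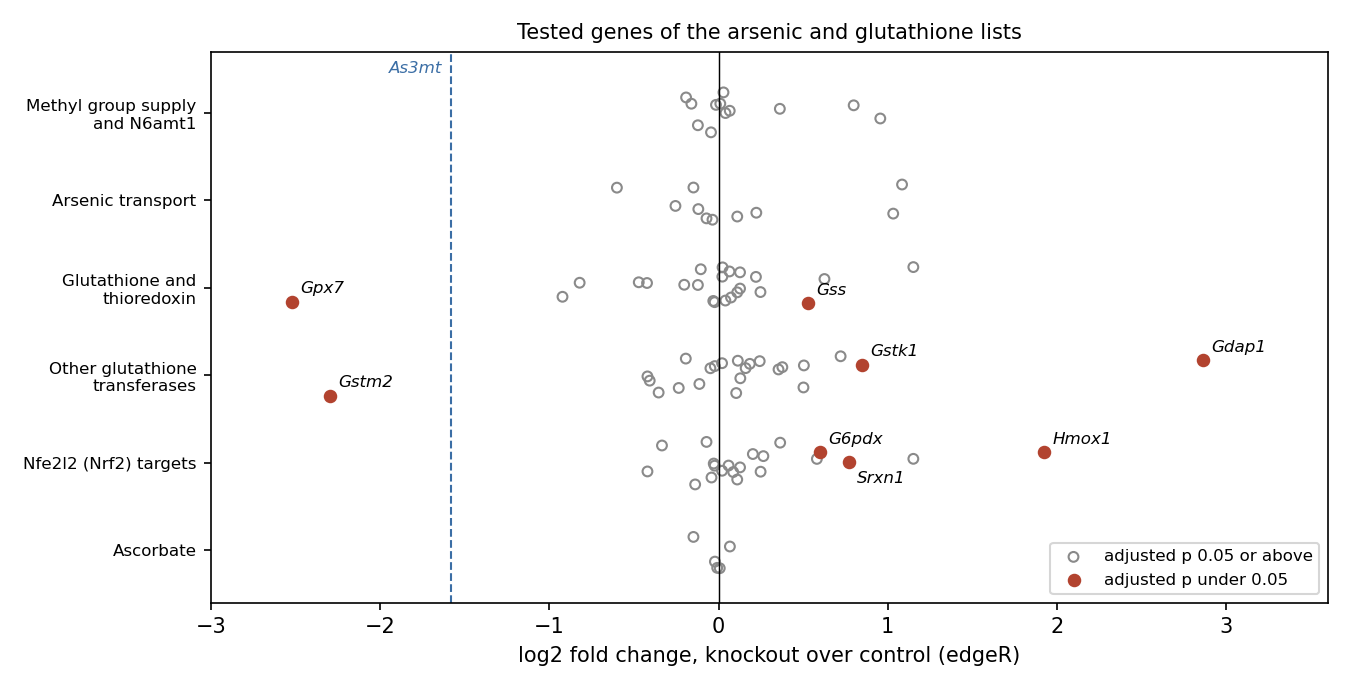
Log2 fold change, knockout over control (x axis), of each tested gene of the 6 lists (rows; vertical scatter within a row has no meaning, and a gene on 2 lists is drawn in each), with genes past an edgeR adjusted p of 0.05 filled and named. The dashed line marks As3mt at -1.58, which Gpx7 and Gstm2 alone of the listed genes pass on the low side.

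Cell type markers also differed between the groups. The marker lists, here and below, were chosen with earlier results of these data known, so shares of markers called are given as descriptions. Kit, by which the cells were sorted, had 438.96 ± 10.96 CPM in the libraries labelled knockout and 557.4 ± 86.1 CPM in controls, and Ly6a, which encodes Sca1, 13.5 ± 1.57 CPM in the libraries labelled knockout and 20.02 ± 2.10 CPM in controls (SD, n = 3 each). Ly6a passed the test as lower and Kit did not (edgeR adjusted p = 0.0378 and 0.0814). Of 13 LSK and stem cell markers, 7 were lower by edgeR (8 by DESeq2), or 53.8% against 4.58% of all tested genes, and their summed level was 1728 to 1875 CPM in the libraries labelled knockout and 2190 to 2716 CPM in controls. Of 15 monocyte, macrophage and dendritic cell markers, 14 were tested and 7 of those 14 were higher (against 3.85% of all tested genes). Among the 7, Marco passed the filter on low counts through the libraries labelled knockout alone. It had 7.87, 10.6 and 22.6 CPM there and 0.06, 0.25 and 0.21 CPM in controls, so the count of 7 depends on this selection. Summed levels of the list were 2747 to 3323 CPM in the libraries labelled knockout and 1589 to 1957 CPM in controls. Of 14 neutrophil markers, 13 were tested and 5 (Ltf, Lcn2, Ngp, Cd177 and Ifitm6) were higher (38.5% against the same 3.85%). The list summed to 9413 to 12231 CPM in the libraries labelled knockout and 4381 to 8363 CPM in controls. Mmp8, Mmp9, Retnlg and Cxcr2 did not pass, at log2 fold changes of 0.02, -0.14, 0.35 and 0.21. S100a8, S100a9 and Camp did not pass either, at 0.93, 0.89 and 0.83. Elane, which gave 1402 to 3020 CPM of the sums, had 0.11 and did not pass. In bulk RNA, fewer cells of a type and less RNA per cell cannot be told apart, and the part of these markers in the As3mt value was not tested. With the sex term these 3 lists had 0 genes past the edgeR test (7, 5 and 4 with an unadjusted p under 0.05), and their median log2 fold changes were -0.36, 0.65 and 0.78. Leaving out knockout replicate 1, knockout replicate 2 or control replicate 1 left 2, 2 and 3 LSK markers lower. Leaving out knockout replicate 2, knockout replicate 3 or control replicate 1 left 4 macrophage markers higher each time. With the replicate block, 8 LSK markers were lower, and 13 macrophage and 8 neutrophil markers were higher.

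Of the other marker lists, erythroblast genes had 6 higher of 14 (Hba-a1 and Hba-a2 among them with a single set of counts), B and plasma cell genes 1 lower of 8 tested, T and NK cell genes 1 lower of 9, mast cell and basophil genes 2 lower of 6, and stroma and endothelium genes 2 lower of 6, against 3.85% higher and 4.58% lower over all tested genes. With the sex term the B and plasma cell list kept a count of 1 lower and the other 4 lists had 0 past the test by edgeR. In those 4, 7, 2, 4 and 2 genes had an unadjusted p under 0.05, in the order given above. Without knockout replicate 2 the mast cell and stroma lists had 0 lower by edgeR (2 genes in each with an unadjusted p under 0.05), and without knockout replicate 3 they had 0 and 1 lower (3 in each). Summed levels were 546.4 to 1141 CPM in the libraries labelled knockout and 491.3 to 893.1 CPM in controls for erythroblast genes, and 142.3 to 277.1 CPM in the libraries labelled knockout and 196.9 to 551.2 CPM in controls for mast cell and basophil genes. For stroma and endothelium genes they were 115.8 to 150.03 CPM in the libraries labelled knockout and 167.5 to 201.4 CPM in controls. B and plasma cell genes summed to 628.6 to 837.4 CPM in the libraries labelled knockout and 462.9 to 711.1 CPM in controls, and T and NK cell genes to 250.8 to 319.2 CPM in the libraries labelled knockout and 209.7 to 281.5 CPM in controls. Single genes gave much of these sums (libraries labelled knockout, then controls). They were Jchain (600.1 to 812.4, then 428.2 to 672.1 CPM) and Nkg7 (212.5 to 284.3, then 153.9 to 230.0 CPM). For erythroblast genes it was Car2 (239.3 to 470.5, then 238.4 to 504.3 CPM). For mast cell genes it was Prss34 (66.3 to 165.6, then 89.8 to 311.1 CPM), and for stroma genes Pecam1 (85.3 to 117.9, then 104.9 to 121.2 CPM). Hepatocyte markers, taken because As3mt is best known from liver, summed to 1.04 to 1.90 CPM in the libraries labelled knockout and 1.78 to 3.51 CPM in controls. Of these 9, Ttr, Serpina1a, Cyp2e1 and Fgb had 0 reads in all 6 libraries. Apob gave 0.96 to 1.59 CPM of the hepatocyte sums in the libraries labelled knockout and 1.63 to 3.44 CPM in controls.

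The genes most like each member across the 6 libraries were taken by the smallest root mean square difference in log2(CPM + 0.5) after each gene was centred on its own mean. For As3mt, among 12120 genes, they were Cped1 (0.12), Siglec5 (0.14), Lamc1 (0.14), Clstn3 (0.15) and Fam115a (0.16). Their log2 fold changes were -2.03, -1.55, -1.63, -1.56 and -3.19 in that order, against -1.58 for As3mt. Cped1 had 0.48 to 0.90 CPM and Fam115a 0.16 to 0.32 CPM in the libraries labelled knockout, where the added 0.5 narrows the difference between groups. Lamc1, a laminin chain, had 6.92, 6.21 and 4.17 CPM in the libraries labelled knockout and 17.6, 18.8 and 17.6 CPM in controls, and Clstn3 12.5, 10.4 and 13.6 CPM in the libraries labelled knockout and 33.99, 35.4 and 37.7 CPM in controls. Being lower in one group is what likeness to As3mt selects, so their fold changes are no further evidence. For Gsto1 the nearest were Nup210 (0.01), Mrpl47, Ube2s, Cpq and Thap4. For Gsto2 they were Cd79a (0.09), Tanc1, Igf2bp2, Crnde and Kdm6a. Gsto2 had 52 reads in all and 0.12 to 0.79 CPM, to which 0.5 was added, so counting error weighs on this ranking. Kdm6a, an X-linked gene known to escape X inactivation, had 94.6, 86.95 and 90.6 CPM in the libraries labelled knockout. It had 88.8 CPM in female control replicate 2 and 53.97 and 63.1 CPM in the male controls. Kdm6a was picked by its likeness to these same Gsto2 values, so it adds no support to a split of Gsto2 by sex.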

How the data were processed

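The values are raw read counts per gene symbol, deposited by the authors as whole numbers in 1 table with no normalization. The submitters' processing notes name STAR and mm10. For the aligner's version, the counter, its annotation and strandedness, nothing was found: not given in the sources used here. Per the labels, RNA was poly(A)-selected and libraries were made with a directional kit.

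All deposited counts were analysed by edgeR 4.0.16 (R 4.3.3), over the 6 libraries: filterByExpr (minimum count 10, minimum total 15), TMM scaling and a quasi-likelihood F test with group as the sole term. Benjamini-Hochberg adjustment ran over all 13679 genes tested, with a threshold of 0.05. Depth ran from 12408966 to 28185678 counted reads, and library pairs differed beyond sampling noise (chi-square at least 10.7 per degree of freedom). Positions and exon lengths came from GENCODE M21 (GRCm38, the assembly of mm10), to which 22779 symbols matched by name and 849 by synonym. Promoters came from RefSeq (GRCm38.p6), which held all 3 members.

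Alternatives were DESeq2 1.42.0, limma-voom (limma 3.58.1), other scalings and filters, a replicate block, a sex term, female libraries alone and each library left out. The scripts were tested on simulated counts. Members, gene lists and marker lists were chosen with earlier results of these data known. Named genes are the members, Arid2, the genes called and the 3 most abundant of each pathway list, nearest neighbours, called genes within 500 kb and the 5 genes most like each member.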

Additional observations from a re-analysis of the deposited data

How the results depend on the processing

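As3mt kept its direction in all 15 alternatives, at -1.68 to -1.53 (log2 fold change), and was -1.68 to -1.53 with each library left out. It was selected for an even difference over these same libraries, so this steadiness follows from the selection and adds no support. Gsto1 stayed between -0.13 and -0.01 and past the threshold in 0 of 15 (edgeR with each library left out, -0.10 to -0.01; unadjusted p = 0.394 by group alone; DESeq2 adjusted p = 0.792). Gsto2 passed in 0 of the 11 alternatives that tested it and turned to -0.014 with the sex term and -0.016 among female libraries alone. Both rest on control replicate 2, and the lone control is assumed there to vary like the other group. Gsto2 was 0.40 to 0.75 in the 3 fits that left out a library and still tested it. It fell below the filter without knockout replicate 1 or 2, without control replicate 2 and under the stricter filter.

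Counts of genes called moved more. Over all genes, 526 were higher and 626 lower. The replicate block gave 1169 and 1003, the sex term 7 and 36, female libraries alone 10 and 29, and an adjusted p under 0.1 gave 951 and 1051. DESeq2 gave 833 higher. With each library left out, genes higher numbered 119 (without knockout replicate 2) to 440, and genes lower 171 (without knockout replicate 2) to 544. Higher counts were also 266, 208 and 189, and lower counts 264, 300 and 284, without knockout replicate 1, knockout replicate 3 and control replicate 1, and 409 were lower without control replicate 3.

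Among pathway genes, 6 were higher and 2 lower. No filter gave 11 and 4, DESeq2 11 and 4, the replicate block 15 and 7, the sex term 0 and 0, female libraries alone 0 and 0 (edgeR; 21 of 90 with an unadjusted p under 0.05), and an adjusted p under 0.1 gave 12 and 5. With each library left out, 1 to 8 were higher and 1 to 2 lower. The causes of these shifts were not tested. Libraries of the same number had deviations from their group means that correlated at 0.357, 0.003 and 0.381 across genes. Knockout replicate 2 did not correlate best with its own number, and replicates 1 and 3 crossed between the groups correlated at -0.365 and -0.375. Deviations within a group of 3 cancel out, so these correlations are not independent and cannot settle whether the numbers pair samples. The labels do not say that they do, and the main fit had no pairing. With the replicate block As3mt was -1.59, Gsto1 -0.06 and Gsto2 0.75. Depth limits Gsto2, with 52 reads in all.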
